A study of Mus musculus with 6 samples.

Results

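The genes described here make the acetyl-CoA and the fatty acids of the cytosol, and their transcripts were measured in mouse precursor cells of the adult hippocampus that had received low-density lipoprotein (LDL). The 10 members are Slc25a1, Acly, Acss2, Aacs, Me1, Acaca, Acacb, Mid1ip1, Thrsp and Fasn, chosen by pathway role from 21368 named genes on the array. The choice was made with earlier results of these data known. They carry 17 probes, found by matching the RefSeq accession of each probe to a gene symbol, since the scanner files hold no gene name. Precursor cells were taken from dentate gyri of male C57BL6/JRj mice aged 8 weeks and grown as an adherent monolayer with 20 ng/ml EGF and 20 ng/ml bFGF, in medium with the B27 supplement. The 3 LDL cultures received human LDL for 48 h, and the 3 Saline cultures received saline for the same 48 h, in independent experiments on different passages. The treatment protocol gives the LDL dose as 100 ug/ml, whereas the sample descriptions write another unit of volume, so the dose unit is not settled by the labels. The labels do not say how many mice the cultures came from.

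Fatty acid synthesis in the cytosol starts from citrate, which leaves the mitochondrion through the carrier Slc25a1 and is split by Acly into acetyl-CoA and oxaloacetate. Acetate (through Acss2) and acetoacetate (through Aacs) are further sources of activated acetyl units. Acetyl-CoA carboxylase turns acetyl-CoA into malonyl-CoA, and Fasn condenses malonyl units into palmitate with NADPH, part of which comes from Me1. Many of these genes are targets of the SREBP transcription factors, which are held inactive when sterols are plentiful. In adult neural precursor cells, Fasn-dependent lipogenesis is known to be needed for proliferation, and the Thrsp protein (Spot14) is known as a modulator of it.

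Each culture was hybridised to a 1-colour Agilent array, all 6 on 1 slide, and the precision is limited by how few arrays there were. The share of probes well above background was 59.7% to 65.7% on the LDL arrays and 55.9% to 66.8% on the Saline arrays. Values are log2 signals from which the array's own 75th percentile was subtracted, so a value of 0 equals that percentile, and they compare arrays for 1 probe, never 1 gene with another. All 8 precursor markers examined were measured, among them Nes, Sox2 and Vim, none passed the test, and their summed signal was 355.4 to 385.4 with LDL and 332.5 to 406.7 with saline, as multiples of the array's 75th percentile. Of 6 neuron markers, Map2, Tubb3 and Rbfox3 were measured, none passed the test, and their summed signal was 13.5 to 13.9 with LDL and 13.5 to 15.8 with saline, while Dcx, Neurod1 and Stmn2 did not meet the background filter. Of the adipocyte markers, Adipoq, Plin1 and Fabp4 did not meet it either, and the summed signal of the other 3 (Lep, Cidec, Retn) was 0.155 to 0.198 with LDL and 0.181 to 0.252 with saline. The summed signal of 6 astrocyte markers was 3.12 to 3.45 with LDL and 3.52 to 4.02 with saline. Gfap, 1 of the 6, rose by 1.35 on the log2 scale (adjusted p = 0.0223 in limma) while the other of its 2 probes had 0.15, and with single arrays left out it passed in 1 of 6 fits (without Saline replicate 1). The other 5 astrocyte markers went the other way, with log2 fold changes from -0.37 for S100b to -0.18 for Gja1, and none passed. The summed signal of the 3 measured among 6 vascular markers was 13.6 to 14.3 with LDL and 14.4 to 15.1 with saline. Oligodendrocyte and microglia marker sums overlapped between the groups. Each sum weights its genes by the brightness of their probes, so it is no level of a cell type. The vascular sum is almost only Kdr (log2 fold change -0.08, adjusted p = 0.89 in limma), and the neuron sum is mostly Map2. The part of these cell types in the results was not tested.

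The comparison asks how these lipid synthesis genes stand in precursor cells after LDL. Of the 10 members 9 could be tested, and none passed an adjusted p of 0.05 over the 24209 features fitted in limma. Across all features 32 passed (0.132%), of which 4 were higher (0.0165%) and 28 lower (0.116%) with LDL. No feature passed when LDL replicate 2, LDL replicate 3 or Saline replicate 3 was left out. The split was 8 higher and 22 lower with median scaling, and 8 higher and 27 lower with the authors' values. At an unadjusted p under 0.05, 7 members had a negative and 1 a positive log2 fold change, against 4.77% of all features lower and 2.89% higher. That background moved with single arrays, as 1854 features had such a p with all arrays, 1020 when LDL replicate 2 was left out, 1104 for LDL replicate 1 and 3822 for Saline replicate 2. In 6 members every LDL array lay below every Saline array, compared with 9.14% of all features, and in 1 member, Me1, every LDL array lay above, compared with 5.72%. The median log2 fold change of the 9 was -0.52, beside -0.03 over all features tested, with a range from -0.86 for Fasn to 0.62 for Me1. Members were chosen with earlier results of these data known, so their counts beside these shares are description and no test of the set. In bulk cultures, fewer cells of a type and less RNA per cell cannot be told apart.

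**Figure D1:**
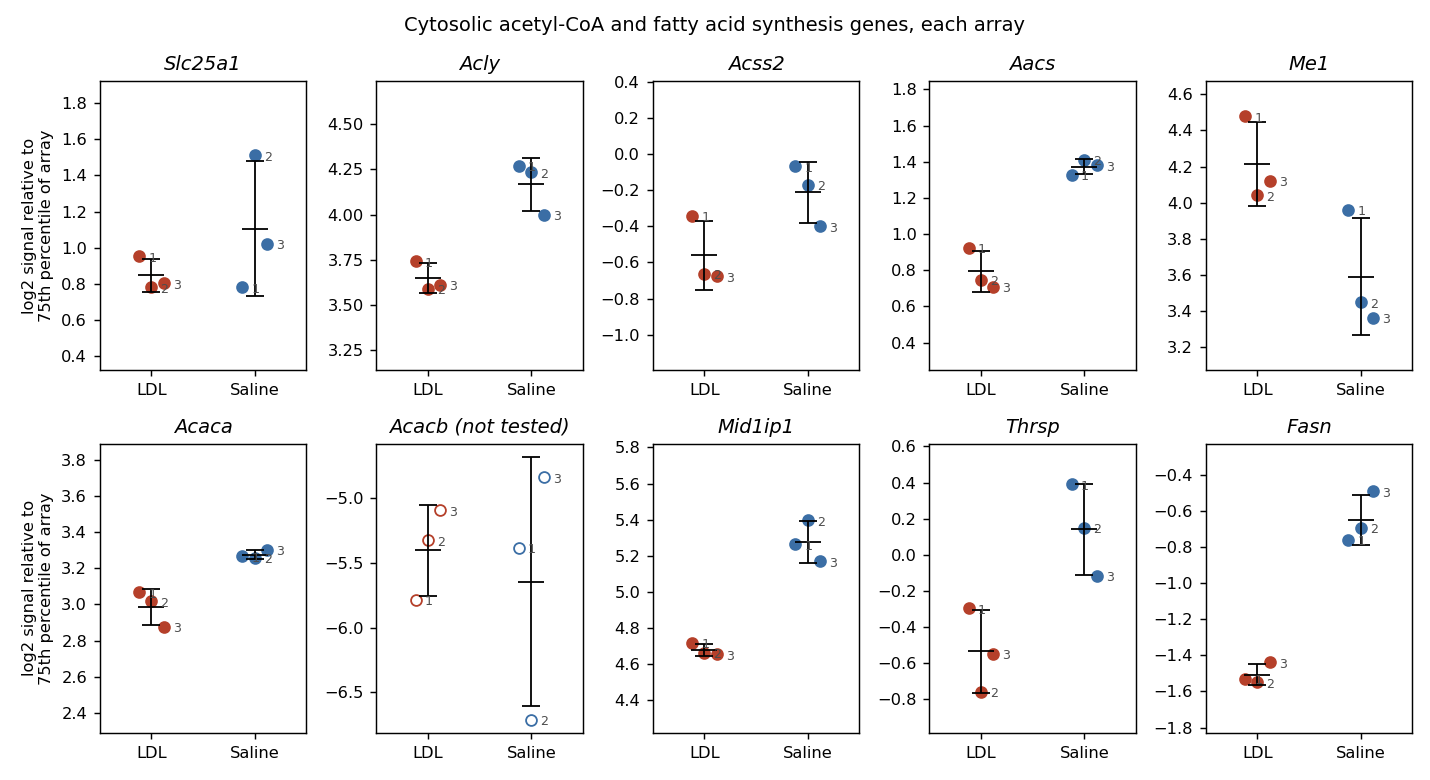
Log2 signal minus the array's 75th percentile (vertical axis, a separate scale for each gene) of the 10 members in LDL and Saline cultures, with 1 point per array numbered by replicate and bars for mean ± SD (n = 3 each). The LDL points lie below all Saline points for Acly, Aacs, Acaca, Mid1ip1, Thrsp and Fasn and above them for Me1, and open points mark Acacb, which was not tested.

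Fasn, the multifunctional enzyme that builds palmitate, had the smallest p of the members, the 37th smallest of all features. Its values were -1.53, -1.55 and -1.44 in LDL replicates 1 to 3, against -0.76, -0.70 and -0.49 in Saline replicates 1 to 3. The LDL arrays lay within 0.11 of each other, and a gap of 0.68 separated the highest of them from the lowest Saline array. Fasn averaged -1.51 ± 0.06 with LDL and -0.65 ± 0.14 with saline (SD, n = 3 each). This is a log2 fold change of -0.86 (SE 0.11, 95% interval -1.11 to -0.60), or a signal ratio of LDL over saline of 0.553 (95% interval 0.462 to 0.66). In limma the adjusted p was 0.0695, in a range from 0.0373 to 0.998 over the alternatives. It fell under 0.05 when only probes above background on all 6 arrays were kept (adjusted p = 0.0466) and with trended robust variances (adjusted p = 0.0373). The gene has 1 probe on the array.

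The promoter windows of Fasn, Thrsp and Me1 show the members with the most negative values beside the member with a positive one. They run from 250 bases before to 50 bases after the annotated start in RefSeq (GRCm38.p6), 5′ to 3′ on the strand of the gene. Fasn lies at chr11:120824498-120824797, Thrsp at chr7:97417501-97417800 and the first of the Me1 windows at chr9:86695865-86696164, all on the minus strand. Capitals mark matches on either strand to the box CCAAT, which binds NF-Y, a known cofactor of SREBPs, or to the sterol regulatory element TCACNCCA, which binds SREBPs.
Fasn: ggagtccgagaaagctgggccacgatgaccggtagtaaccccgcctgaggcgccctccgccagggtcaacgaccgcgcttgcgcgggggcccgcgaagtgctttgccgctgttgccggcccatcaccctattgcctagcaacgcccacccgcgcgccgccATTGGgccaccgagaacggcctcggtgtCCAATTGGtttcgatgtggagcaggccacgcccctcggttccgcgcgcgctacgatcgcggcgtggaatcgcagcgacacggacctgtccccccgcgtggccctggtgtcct
Thrsp: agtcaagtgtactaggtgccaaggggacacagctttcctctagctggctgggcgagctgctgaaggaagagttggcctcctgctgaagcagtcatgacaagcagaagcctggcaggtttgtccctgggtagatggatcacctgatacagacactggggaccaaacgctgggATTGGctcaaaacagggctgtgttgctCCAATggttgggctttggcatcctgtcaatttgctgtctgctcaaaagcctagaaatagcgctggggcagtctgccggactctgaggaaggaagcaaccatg
Me1: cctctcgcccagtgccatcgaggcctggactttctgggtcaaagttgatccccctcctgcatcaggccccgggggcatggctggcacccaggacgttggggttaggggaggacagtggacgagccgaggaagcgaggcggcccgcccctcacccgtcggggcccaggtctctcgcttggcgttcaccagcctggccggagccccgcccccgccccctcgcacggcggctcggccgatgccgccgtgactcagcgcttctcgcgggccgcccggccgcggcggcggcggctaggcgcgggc

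The NF-Y box occurred 3 times in the Fasn window, on the minus strand at -90 and -59 and on the plus strand at -62 (strands and positions relative to the gene and its start), and the matches at -62 and -59 overlap. It occurred 2 times in the Thrsp window, at -79 and -52, and not in the first Me1 window, which held 4 GC boxes (GGGCGG). The other Me1 window held it once, at -208, and Aacs, Acaca and Mid1ip1, whose log2 fold changes were negative, held none. Of the 10 members 7 held CCAAT in at least 1 of their 11 windows, and 37.4% of all 32851 promoter windows in the table held it. GC boxes were present in 5 members and in 35.7% of all windows, and the CACGTG E-box in 1 member, Slc25a1, and in 7.15% of all windows. TCACNCCA matched in 0 members and in 4.36% of all windows. Only exact matches to this pattern were counted, so the 0 does not show that the members lack SREBP sites. The windows follow annotated starts, and which starts the cells use was not measured. Bases just before the Acaca start read like the end of an intron, and the Acacb start falls on an ATG. The windows of Acaca and Acacb may thus lie outside their promoters. These are letter matches in a short window, and nothing about binding was measured.

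Among the genes that supply acetyl units, Acly, the ATP citrate lyase, read 3.74, 3.59 and 3.61 in LDL replicates 1 to 3, against 4.27, 4.23 and 4.00 in Saline replicates 1 to 3. All LDL arrays were below all Saline arrays, by at least 0.26. Acly thus differed by -0.52 on the log2 scale (SE 0.11, adjusted p = 0.334 in limma), with a 95% interval from -0.79 to -0.25. A further and dim Acly probe, with processed signals of 52.0 to 76.9 with LDL and 69.1 to 98.9 with saline, had -0.59 and also no overlap between the groups.

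Aacs, the cytosolic acetoacetyl-CoA synthetase that activates the ketone body acetoacetate for lipid synthesis, had values of 0.92, 0.75 and 0.71 with LDL, against 1.33, 1.41 and 1.38 with saline. The Saline arrays were close together (SD 0.04) and the LDL arrays lay at least 0.40 lower. The resulting log2 fold change was -0.58 (SE 0.10; adjusted p = 0.191 in limma), with a 95% interval from -0.82 to -0.34.

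Acss2, which makes acetyl-CoA from acetate, read -0.34, -0.66 and -0.68 with LDL, against -0.07, -0.17 and -0.40 with saline. LDL replicate 1 lay above Saline replicate 3, so the groups overlapped. On the log2 scale the difference was -0.35 (SE 0.14; adjusted p = 0.641 in limma) with a 95% interval from -0.68 to -0.01, and a further Acss2 probe gave -0.16 (95% interval -0.48 to 0.16).

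Slc25a1, the mitochondrial citrate carrier, differed least of the 9 and varied most within the Saline group. It had 0.95, 0.78 and 0.80 with LDL, against 0.78, 1.51 and 1.02 with saline. Its log2 fold change of -0.26 (adjusted p = 0.82 in limma; 95% interval from -0.71 to 0.19) rested largely on Saline replicate 2, without which it was -0.06. Without Saline replicate 1 it was -0.42.

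Me1, the cytosolic malic enzyme that yields NADPH from malate, was the member with a positive value. Its probe with the highest signal read 4.48, 4.04 and 4.12 in LDL replicates 1 to 3, against 3.96, 3.45 and 3.36 in Saline replicates 1 to 3. Replicate 1 was highest in both groups, and LDL replicate 2 exceeded Saline replicate 1 by only 0.08. Me1 differed by 0.62 on the log2 scale (SE 0.19; adjusted p = 0.515 in limma), with a 95% interval from 0.16 to 1.08, or a signal ratio of 1.54. The other 2 Me1 probes had larger values, 0.76 (95% interval 0.37 to 1.16) and 0.90 (95% interval 0.52 to 1.28), and no overlap between groups on either. With adjustment over all single probes they did not pass (adjusted p = 0.38 and 0.233 in limma).

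Acaca encodes the cytosolic acetyl-CoA carboxylase that supplies malonyl-CoA to Fasn. It had 3.07, 3.02 and 2.88 with LDL, against 3.27, 3.26 and 3.30 with saline. The Saline arrays agreed to within an SD of 0.02, and the groups did not overlap. The difference was small, at -0.29 (SE 0.10; adjusted p = 0.539 in limma), with a 95% interval from -0.52 to -0.06. The other 2 Acaca probes were dim, had -0.24 and -0.18, and overlapped between groups.

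Acacb encodes the carboxylase of the outer mitochondrial membrane, whose malonyl-CoA restrains the entry of fatty acids into mitochondria. Its brighter probe was well above background on 1 of 3 LDL and 1 of 3 Saline arrays and the other probe on 0 of 6, so it was not tested and no fold is given. The processed signal of the brighter probe was 17.4, 21.0 and 28.2 with LDL, against 18.2, 6.95 and 33.0 with saline, while the lowest signal called well above background on an array was between 18.4 and 33.4.

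**Figure D2:**
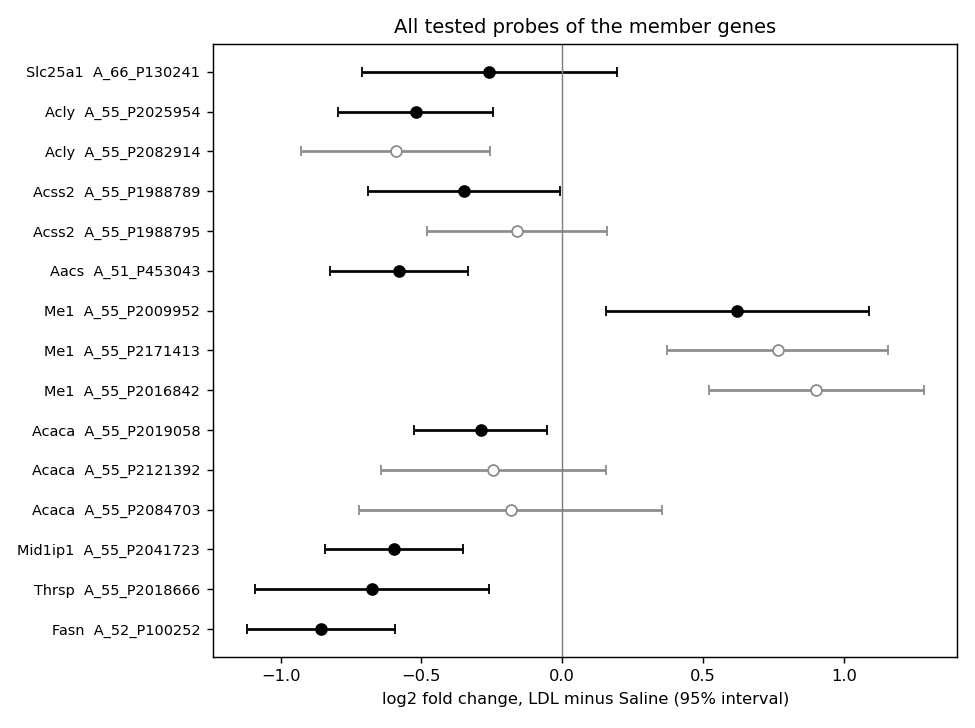
Log2 fold change (LDL minus Saline) with its 95% interval for each of the 15 tested probes of the members, from the fit on single probes, with filled points for the probe that stands for the gene. The 3 Me1 probes lie to the right of 0, and the other 12 probes lie to the left.

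Mid1ip1 and Thrsp encode small related proteins (MIG12 and Spot14), of which MIG12 promotes polymerisation of acetyl-CoA carboxylase and Spot14 can pair with MIG12. Mid1ip1 had 4.72, 4.66 and 4.65 with LDL, against 5.26, 5.40 and 5.17 with saline. It showed the tightest LDL values of the 9 members (SD 0.03), and a gap of 0.45 separated the groups. For Mid1ip1 the log2 fold change came to -0.60 (SE 0.10, 95% interval -0.84 to -0.36), or a signal ratio of 0.661. Its adjusted p in limma was 0.167, and 0.0364 with normexp and quantile normalization and 0.0453 with trended robust variances, in a range up to 0.998.

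Thrsp had -0.30, -0.76 and -0.55 with LDL, against 0.39, 0.15 and -0.11 with saline. Both groups were spread out (SD 0.23 and 0.25) and lay 0.18 apart at their nearest arrays. Thrsp thus differed by -0.68 on the log2 scale (SE 0.17; adjusted p = 0.447 in limma), with a 95% interval from -1.09 to -0.26.

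Whether pairs of members shifted by unequal amounts was tested on the log2 difference of both genes within each array, for 3 of 4 planned pairs, since the pair with Acacb could not be measured. Me1 minus Fasn was 6.01, 5.59 and 5.56 in LDL replicates 1 to 3, against 4.72, 4.15 and 3.86 in Saline replicates 1 to 3, a shift of 1.48 with no overlap (exact two-sided permutation p = 0.1, adjusted over 3 pairs 0.15). Acss2 minus Acly shifted by 0.17 without overlap (exact p = 0.1, adjusted 0.15), but the groups overlapped with normexp and quantile normalization, with the authors' values and with the mean over probes (exact p = 0.2 in each). Mid1ip1 minus Thrsp shifted by 0.08 with overlap (exact p = 0.7, adjusted 0.7). With 3 arrays against 3 the smallest p this test can give is 0.1, so no pair could pass.

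Seen by array, the 9 tested members had a median deviation from their Saline means of -0.43, -0.58 and -0.56 in LDL replicates 1 to 3, against -0.01, 0.04 and -0.11 in Saline replicates 1 to 3. The Saline medians lie near 0 by construction, because each gene was centred on its Saline mean. On each LDL array 8 of the 9 were below their Saline mean, and LDL replicate 1 was the nearest of the LDL arrays to saline. Within slide row 1, which held 2 arrays of each group, the difference was -0.81 for Fasn, -0.64 for Mid1ip1, -0.53 for Aacs and 0.55 for Me1. Within slide row 2, with 1 array of each group, it was -0.95 for Fasn, -0.51 for Mid1ip1, -0.67 for Aacs and 0.76 for Me1.

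**Figure D3:**
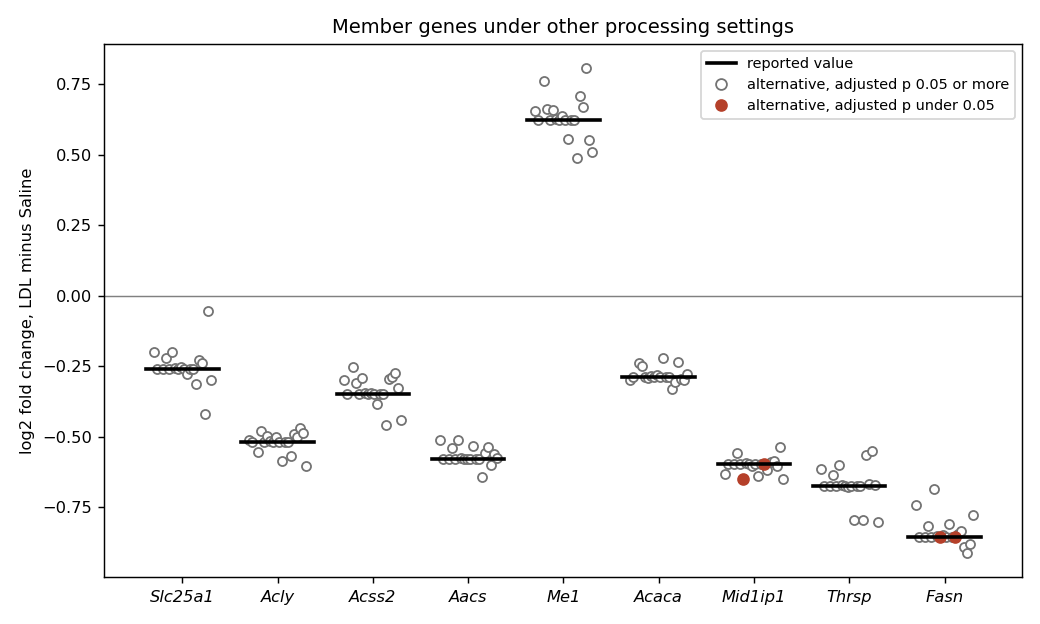
Log2 fold change (LDL minus Saline) of the 9 tested members as reported (black line) and under 19 other settings (points), filled where the adjusted p was under 0.05. Each member keeps its sign in all of its settings, and the filled points are 2 for Mid1ip1 and 2 for Fasn. Some settings alter only SE and p and repeat the reported value, so their sign could not change.

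The named genes outside the pathway whose 6 values lay nearest to those of Fasn, after centring each gene on its own mean, were St6galnac5, Pcyt2, Rftn2, Acat2 and Hoxaas2. Their root mean square differences from Fasn over the 6 arrays ran from 0.0982 to 0.15 log2 units. They were picked for this nearness over the same arrays, so a fall close to that of Fasn follows from the choice. St6galnac5, a sialyltransferase, fell by 0.75 (adjusted p = 0.0491 in limma). Acat2, the cytosolic acetoacetyl-CoA thiolase that feeds acetyl-CoA into the mevalonate pathway, fell by 0.93 (adjusted p = 0.0347). Neither passed in any of the 6 fits with 1 array left out. Pcyt2, an enzyme of phosphatidylethanolamine synthesis, had -0.81 (adjusted p = 0.0758), and Rftn2 at -0.67 and Hoxaas2 at -0.59 did not pass either. Hoxaas2 read low, with a mean of -4.36 with LDL and -3.77 with saline. Of the members, Aacs at 0.18 and Mid1ip1 at 0.191 were nearest to Fasn and Me1 at 0.795 the farthest.

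Around the members, the enzymes that elongate and desaturate fatty acids had a median log2 fold change of -0.35 over 15 tested genes. Of these, 2 were lower, 0 higher and 13 did not pass in limma. The elongase Elovl6 fell to 1.27 ± 0.09 with LDL, against 2.46 ± 0.10 with saline (log2 fold change -1.19, adjusted p = 0.0143), and the desaturase Scd1 to -0.10 ± 0.28 with LDL, against 1.44 ± 0.15 with saline (log2 fold change -1.53, adjusted p = 0.0314). Leaving out 1 array at a time, each passed in only 1 of 6 fits (without Saline replicate 1 for Elovl6 and without LDL replicate 1 for Scd1), although the values stayed between -1.25 and -1.14 for Elovl6 and between -1.68 and -1.41 for Scd1. Scd2 at -0.54 and Elovl5 at -0.39 did not pass.

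Regulators of lipogenic transcription had a median of -0.08 over 14 genes, of which 2 were lower and 12 did not pass. Srebf1, whose product drives many fatty acid synthesis genes, fell to -1.56 ± 0.17 with LDL, against -0.23 ± 0.18 with saline (log2 fold change -1.32, adjusted p = 0.0314). Insig1, which retains the SREBP escort protein in the endoplasmic reticulum, fell by 2.02 (adjusted p = 0.0104). Srebf1 passed in 0 of 6 fits with 1 array left out (adjusted p from 0.0871 to 0.164) and Insig1 in 2, without LDL replicate 1 or Saline replicate 1. Srebf2 had -0.86 (adjusted p = 0.477) and the liver X receptor gene Nr1h3 -0.35, although its 2 probes disagreed in sign.

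Genes of acetate, acetoacetate and thiolysis had a median of -0.35 over 9 tested of 10, with 1 lower, the gene Acat2. The mitochondrial counterparts Acss1 at -0.56 and Acat1 at -0.37 and the ketone body enzyme Oxct1 at -0.22 did not pass. Other NADPH suppliers pointed both ways, with a median of 0.09 over 8 genes and 0 passing, and a median of 0.015 without LDL replicate 1 and 0.037 without Saline replicate 3. The pentose phosphate enzymes G6pdx and Pgd had 1.04 (adjusted p = 0.266) and 0.54 (adjusted p = 0.659), while the cytosolic isocitrate dehydrogenase Idh1 had -1.23 (adjusted p = 0.109, and 0.0294 without Saline replicate 1) and the mitochondrial malic enzyme Me3 -0.27. For Pgd the value was 0.28 without LDL replicate 1.

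The genes that feed citrate and mitochondrial acetyl-CoA had a median of -0.02 over 18, the genes that control the carboxylases or break down malonyl-CoA 0.06 over 10, and the separate fatty acid synthesis of mitochondria 0.09 over 7 tested of 8, and none of these genes passed. At an unadjusted p under 0.05, the elongation list held 8 lower genes of 15 and the regulators 3 of 14. The acetate list held 3 lower of 9, and these lists held 0 higher. In the NADPH list 1 was lower and 1 higher of 8. Over all features 4.77% were lower and 2.89% higher. The citrate, carboxylase and mitochondrial lists held 1, 0 and 0 such genes, the first being Idh1, which the citrate and NADPH lists share. Next to it in the citrate list were Idh2 at -0.20, Mdh1 at -0.17 and the plasma membrane citrate carrier Slc13a5 at -0.15, whose values nearest to 0 with 1 array left out were -0.087, -0.070 and -0.088 in the same order. In the carboxylase list the AMPK subunit genes Prkag2 at -0.24, Prkaa2 at 0.34 and Prkab2 at -0.22 had the smallest p beside Hlcs, the biotin ligase, at 0.22, whose 2 probes disagreed in sign (-0.16 and 0.22). With 1 array left out, Prkag2 ran from -0.32 to -0.15, Prkaa2 from 0.22 to 0.48 and Hlcs from 0.13 to 0.27. In the mitochondrial list these were Acsf3 at 0.17, Mecr at 0.19, Aasdhppt at 0.09 and Oxsm at 0.14, of which Mecr had -0.01 without Saline replicate 1 and Oxsm -0.02 without Saline replicate 2.

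**Figure D4:**
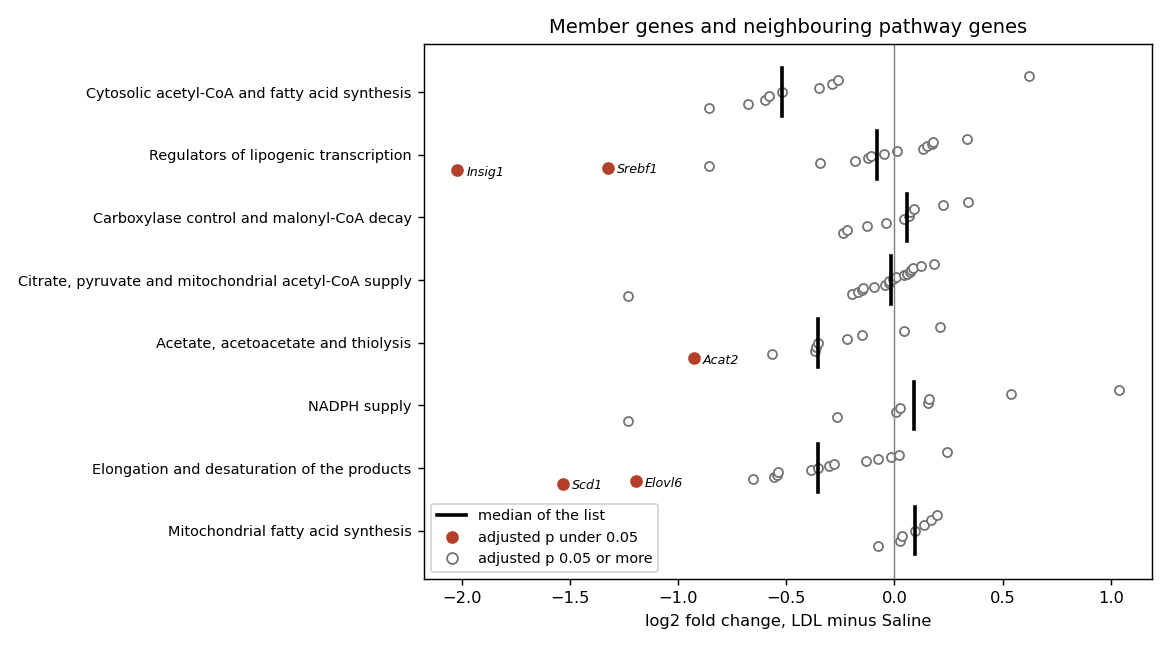
Log2 fold change (LDL minus Saline) of each tested gene in the member list and in 7 neighbouring lists, with the median of each list as a black line and filled points for genes with an adjusted p under 0.05 in limma. The lowest medians are those of the members, of acetate, acetoacetate and thiolysis, and of elongation and desaturation, and the 5 filled points are all negative.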

How the data were processed

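RNA of 3 LDL and 3 Saline cultures was labelled with cyanine-3 and hybridised to 1-colour Agilent arrays. Scanner output was deposited as linear intensity per spot, already background-subtracted and detrended by Agilent Feature Extraction 10.7.3.1 with no scaling between arrays, per the file headers. A processed table was deposited too, in log2 values whose column medians lay between 6.67 and 6.68. It followed the scanner values across probes (r from 0.987 to 0.993), so its direction is that of the signal, and how the authors normalized it is unknown. The submitters' processing notes list R 3.4.4 and limma 3.34.9.

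Here, controls and outlier-flagged spots were dropped, the array's 75th percentile was subtracted from the log2 signal, and repeat spots were averaged. Tested probes (32972 of 55681) had at least 50% of spots well above background on every array of a group. RefSeq accessions were matched without version to symbols of GRCm38.p6 (28331 probes), a table used for names and promoters only. Probe sequences were not used, so signal from related genes cannot be told apart. For each gene the brightest probe was kept, leaving 24209 features. LDL was compared with saline in limma 3.58.1 under R 4.3.3 (lmFit, eBayes, no covariates, all 6 arrays, two-sided, Benjamini-Hochberg over all features), and single probes were fitted in the same way. No member lacked a value on any array. The fit was tested on simulated data with changes larger than those of the members, so the power for the members is not known. The labels name independent experiments, so p-values measure the spread between them. Named genes were all members, up to 4 of each list with the smallest p, and the 5 most like Fasn. Members and lists were chosen with earlier results of these data known. Figures were drawn with matplotlib 3.10.9.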

Additional observations from a re-analysis of the deposited data

How the results depend on the processing

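The 9 tested members kept their sign in 171 of 171 values over 19 alternatives, 1 of which (outlier-flagged spots kept: 3 higher and 26 lower over all features) was chosen after seeing the data, and 7 of the 9 passed in none. Much of this was fixed in advance. The other background filters, the single-probe fit, the replicate and slide row blocks and trended robust variances repeated the members' log2 fold changes. These settings altered only SE and p. Where groups did not overlap, leaving out 1 array could not change the sign. The count of members lower, 0, became 1 with normexp and quantile normalization (Mid1ip1), 1 with probes above background on all 6 arrays (Fasn) and 2 with trended robust variances. Over all features, 4 features were higher, but 9 under normexp and quantile normalization, 14 under trended robust variances, 8 in the authors' table, 8 after median scaling, and 0 with no background filter, in slide row 1 alone or under a slide row block. Of 28 lower, the slide row block left 14, and 0 passed with no filter or in slide row 1 alone. Omitting single arrays, higher calls ranged from 0 to 6 and lower calls from 0 to 24, and 0 passed in all without LDL replicate 2, LDL replicate 3 or Saline replicate 3 and 3 without Saline replicate 2. In limma 1810 features had an unadjusted p under 0.05 without the filter, 871 in slide row 1 alone, 1020 when LDL replicate 2 was omitted, 1396 for LDL replicate 3, 1567 for Saline replicate 3 and 3822 for Saline replicate 2, beside 1116 after median scaling. Without Saline replicate 1 the count was 2237, so counts with 1 array left out lay both below and above the 1854 with all arrays. Fits with fewer arrays have fewer degrees of freedom, and why the counts moved in either direction was not tested. A replicate block gave 3 higher and 10 lower features, and no member passed (Fasn adjusted p = 0.154). For arrays that share a number, deviations from the group means had correlations of 0.236, -0.0811 and 0.206 over genes, and other pairs from -0.272 to 0.079, so pairing was not assumed. Numbers 1 and 3 matched best with themselves and number 2 did not. The median of the acetate list was -0.25 with normexp and quantile normalization and -0.25 with the mean over probes. With 1 array left out it ran from -0.39 to -0.23, that of the elongation list from -0.45 to -0.20 and that of the carboxylase control list from -0.040 to 0.14, that of the NADPH list from 0.015 to 0.12, that of the mitochondrial list from 0.038 (without LDL replicate 1) to 0.13 and that of the regulators from -0.10 to -0.031 (without Saline replicate 2), while that of the citrate list, -0.02, kept its sign in 14 of 18 settings. The shift of Mid1ip1 minus Thrsp was -0.051 with normexp and quantile normalization, -0.018 with the authors' values and -0.053 to 0.18 with 1 array left out. Of the genes around the members, Srebf1, Acat2 and St6galnac5 lost their call whichever array was left out, while the log2 fold changes of these 3 genes moved by less than 1.5 times. Signal near background limits Acacb and the dim probes of Acly and Acaca.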
